A study of Mus musculus with 12 samples.

Results

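The fibroblast growth factor (FGF) genes were read out of single-cell transcriptomes of mouse fetal gonads at E12 (23 ± 3 tail somites). Members were every gene whose symbol was Fgf or Fgfr followed by its number, together with the decoy receptor gene Fgfrl1, the feedback genes Spry1 to Spry4, Spred1, Spred2, Dusp4 and Dusp6, and the transcription factor genes Etv1, Etv4 and Etv5. There were 38 such genes among the 32285 listed, comprising 18 secreted ligands, 4 intracellular homologues, 5 receptors, 8 feedback inhibitors and 3 ETS factors. The rule itself used names only and no measured value, but it was chosen with earlier results of these data known.

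The study compared 6 groups of 2 libraries each: XX WT, XY WT, XX -KTS KO, XY -KTS KO, XX +KTS KO and XY +KTS KO. WT1 is a zinc-finger protein made in several splice forms, of which +KTS carries 3 extra amino acids between zinc fingers and -KTS lacks them. -KTS KO (minusKTS KO in the sample titles) denotes gonads homozygous for loss of the -KTS form and +KTS KO (plusKTS KO) those homozygous for loss of the +KTS form, all mice being on a mixed B6CBAF1/JRj background. Each -KTS KO library pooled the gonads of several embryos. Nothing in the labels ties a replicate number to a separate litter, so the p-values below measure the spread between these libraries.

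FGF ligands bind FGF receptor tyrosine kinases together with heparan sulphate and activate the RAS and MAP kinase cascade. That cascade switches on the ETS factors Etv1, Etv4 and Etv5 and the inhibitors of the Spry, Spred and Dusp families, so that these genes serve as a common readout of receptor activity. In the fetal gonad Fgf9 is known as a testis-promoting ligand that acts through Fgfr2, and Sertoli cells, the supporting cells of the testis, are its best known source. Pre-granulosa cells are the supporting cells of the ovary.

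No promoter was at hand for Etv4, Dusp4, Spry4, Fgf1, Fgf8, Fgf15, Fgf16, Fgf17, Fgf20, Fgfr1 and Spry3, so none of these was searched. Promoters of the other 27 of 38 genes came from RefSeq (GRCm38.p6), as windows from 250 bases before to 50 after the transcription start. They were searched on both strands for CCGGAA, the core bound by ETS factors, and for GNGGGGGCG, a G-rich site of the kind bound by EGR proteins and by the -KTS form of WT1. These 2 motifs share no overlapping match in the windows printed. CCGGAA lay in 5 of the 36 promoters of the matched genes (13.9%, those of Fgf5, Fgf12, Fgfr4, Fgfrl1 and Spry2) and in 14.9% of all 32851 promoters. GNGGGGGCG lay in 6 of the 36 (16.7%, those of Fgf2, Fgf4, Fgf10, Fgf22, Fgfr3 and Fgfrl1) and in 7.74% of all promoters. The windows of the ligand gene Fgf9 and the receptor gene Fgfr2, on which the comparisons below turn, and of Fgfrl1, which was chosen because it holds both motifs, read as follows, 5′ to 3′, with motif matches in capitals.
Fgf9 (chr14:58072436-58072735, plus strand): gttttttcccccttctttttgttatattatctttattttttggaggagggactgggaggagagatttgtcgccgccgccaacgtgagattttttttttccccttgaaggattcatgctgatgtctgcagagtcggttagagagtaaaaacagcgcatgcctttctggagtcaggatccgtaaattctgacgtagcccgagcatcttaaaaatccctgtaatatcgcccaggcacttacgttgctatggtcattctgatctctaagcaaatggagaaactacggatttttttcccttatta
Fgfr2 (chr7:130266759-130267058, minus strand): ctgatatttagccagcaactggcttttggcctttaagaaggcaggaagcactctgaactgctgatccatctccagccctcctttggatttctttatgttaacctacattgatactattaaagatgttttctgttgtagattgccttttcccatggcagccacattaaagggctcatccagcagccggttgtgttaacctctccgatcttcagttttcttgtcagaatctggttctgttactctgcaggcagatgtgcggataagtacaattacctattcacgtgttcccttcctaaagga
Fgfrl1 (chr5:108693979-108694278, plus strand): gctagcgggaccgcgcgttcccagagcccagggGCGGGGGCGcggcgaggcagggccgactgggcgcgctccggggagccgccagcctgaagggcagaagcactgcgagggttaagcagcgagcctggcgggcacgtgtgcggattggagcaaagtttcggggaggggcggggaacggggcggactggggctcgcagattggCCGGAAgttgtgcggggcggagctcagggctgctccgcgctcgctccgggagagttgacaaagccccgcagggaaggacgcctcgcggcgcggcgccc
Fgf9 and Fgfr2 had no match to either motif in these windows, and Fgfrl1 had 1 match to each. Each of these windows lies inside the annotated span of its gene. The upstream ends of those spans were therefore not searched. A match describes letters only, and no binding was measured.

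Across the 12 libraries 103730 barcodes were listed, with 108111924 to 147968666 unique molecular identifiers (UMIs, counts of captured molecules) per library. After filters 76976 cells were kept, of which 66204 were gonadal somatic cells, and their UMIs were summed per library. Levels are given as UMIs per 1000000 UMIs of the scaled somatic sum (CPM), which counts transcript ends and carries no length term. Of 76229 distinct barcodes among the kept cells, 740 (0.971%) occurred in more than 1 library. Xist lay from 525 to 719 CPM in XX samples and did not exceed 0.153 CPM in XY samples, and the Y-linked Ddx3y was at 0 and at 44.1 to 62.4 CPM. Wt1 was at 171 to 305 CPM in all libraries. Reads from transcript ends do not tell the KTS forms apart, so this level is no check of the knockouts. The library XY +KTS KO replicate 1 stood apart, with the immediate early genes Fos at 573 CPM and Egr1 at 275 CPM. Elsewhere these were at most 137 and 61.2 CPM, and results are therefore also given without that library. Between the wild-type sexes Fos and Egr1 overlapped. Jun was at 347 and 208 CPM in XY WT and 181 and 125 in XX WT. Ier2 was at 236 and 165 CPM in XY WT and 132 and 92.6 in XX WT. The part of this difference was not tested. XY +KTS KO replicate 2 held 93 of the 94 cells of a cluster led by skeletal muscle genes, and leaving that cluster out removed no call on a member.

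Of the 38 genes, 34 passed the filter on low counts and were tested. Fgf4, Fgf6, Fgf15 and Fgf23 were not, having at most 5 UMIs in any library and 4 to 12 over all libraries. A gene was called when its adjusted p (edgeR's quasi-likelihood test, Benjamini-Hochberg over 17715 genes) was below 0.05, and fold changes are given with their standard errors (SE) on the log2 scale. Called in at least 1 of the 7 comparisons of whole somatic sums were 25 genes. The 9 tested genes not called in any of these were Fgf2, Fgf7, Fgf8, Fgf12, Fgf21, Fgf22, Spred1, Spred2 and Spry3. Among them Spred1 (22.0 to 39.6 CPM), Spred2 (5.73 to 13.5 CPM) and Fgf2 (3.33 to 11.5 CPM) were the highest and the others stayed at or below 1.92 CPM. In sums over cells, fewer cells of a type and less RNA per cell cannot be told apart.

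The first comparison was that of the sexes in wild-type gonads. XY WT gonads had far more Fgf9 than XX WT gonads and more of 8 of the 11 readout genes (ETS factors and feedback inhibitors), whereas the receptor gene Fgfr2 was lower. Of the 34 members 19 were called, 15 higher and 4 lower in XY WT, while 13.3% of all genes were called in this comparison, 6.99% higher and 6.33% lower. The median log2 fold change was 0.92 over the members and -0.017 over all genes. Of the 8 feedback inhibitors 5 rose (Dusp4, Dusp6, Spry1, Spry2 and Spry4), as did all 3 ETS factors, and the other 3 inhibitors were not called. In these wild-type libraries the summed level of Sertoli markers ran from 1380 to 1742 CPM in XY and from 55.3 to 58.7 CPM in XX, and their part in these differences was not tested. The markers listed for the mesonephric duct, a neighbouring tissue, summed to 361 to 435 CPM in XY WT and 98.7 to 140 CPM in XX WT. This sum does not count duct cells. The cluster named mesonephric duct held 0 wild-type cells, and the listed marker Spp1 was a leading gene of a gonadal cluster with 1849 XY WT cells. Pre-granulosa markers summed to 161 to 325 CPM in XY WT and 1023 to 1034 in XX WT, and neural crest markers to 18.5 to 20.6 and 4.58 to 5.70 CPM. Interstitial progenitor markers summed to 557 to 933 CPM in XY WT and 401 to 444 CPM in XX WT, and perivascular markers to 29.2 to 34.1 and 13.5 to 19.3 CPM. Pre-supporting markers summed to 760 to 989 CPM in XY WT and 1149 to 1385 CPM in XX WT. The part of these marker sets was not tested either. Whichever 1 of the 4 libraries was left out, the genes still called were Fgf9, Fgf13, Fgfr2, Etv1, Dusp4 and Spry1. The other 13 lost their call in at least 1 such fit, with adjusted p from 0.0507 to 0.362 there, Fgf10 and Fgf1 reaching 0.362 and 0.231 without XY WT replicate 1. When all kept cells were summed, germ cells included, 11 members were called. Dusp4, Etv5, Fgf1, Fgf10, Fgf16, Fgfr1, Fgfr3 and Fgfrl1 were not, with adjusted p of 0.0531 for Dusp4 and 0.327 for Etv5. The 13.3% is not the background of this count. Over all genes the alternatives gave 395 to 3020 calls, against 2359 in the main fit.

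**Figure D1:**
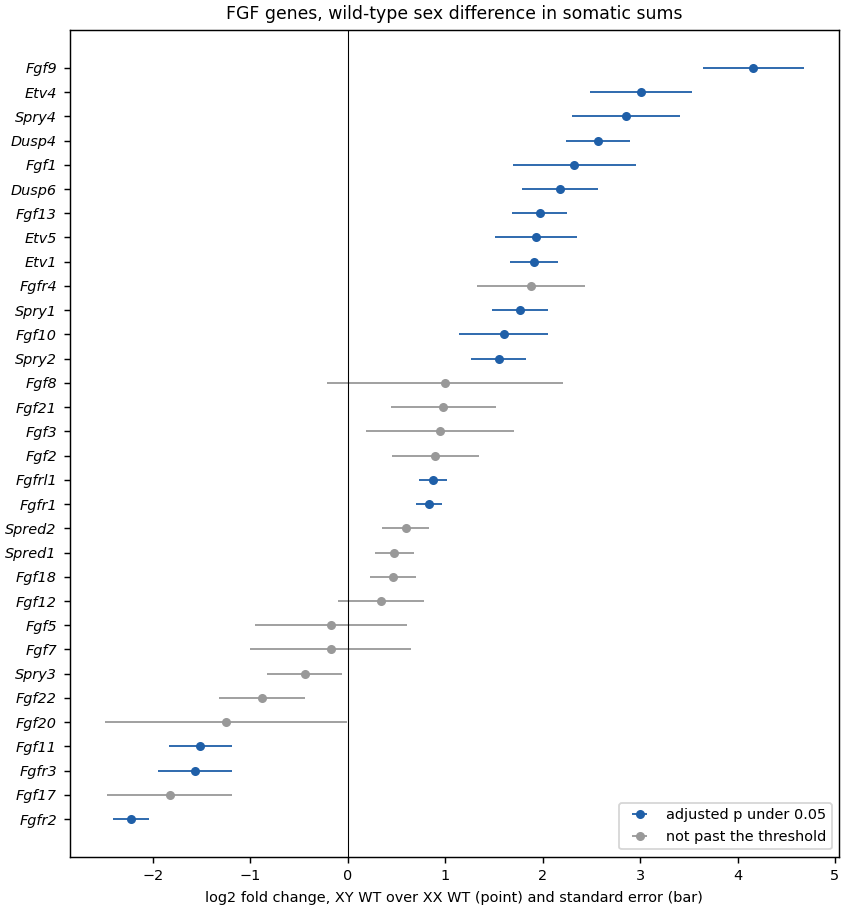
Log2 fold change of each tested FGF gene in XY WT over XX WT somatic sums (x axis, point) with its standard error (bar), 1 gene per line, blue where the adjusted p was below 0.05 and grey otherwise. Fgf9 lies farthest to the right at 4.16 and Fgfr2 farthest to the left at -2.23; Fgf14 and Fgf16 are left out because a group held at most 2 UMIs.

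Fgf9 (chromosome 14, 58070547 to 58112720, plus strand, GRCm38) stood at 1.88 and 3.12 CPM in the XX WT libraries and at 38.7 and 51.4 CPM in the XY WT libraries. It was at 4.65 and 3.00 CPM (XX) and 4.18 and 5.20 CPM (XY) with the -KTS KO, and 1.99 and 1.94 (XX) and 5.79 and 1.71 (XY) with the +KTS KO. The XY WT libraries were thus set apart from all 10 others. Between the wild-type sexes Fgf9 rose by 4.16 ± 0.52 (SE), 17.9-fold (adjusted p = 0.00119).

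Fgf10, a ligand of mesenchyme that signals mainly through Fgfr2, was at 1.08 and 1.64 CPM in XX WT and 5.80 and 2.47 in XY WT. In the -KTS KO libraries Fgf10 was at 5.99 and 9.71 CPM in XX and 8.41 and 11 in XY, and in the +KTS KO libraries at 0.817 and 1.62 in XX and 0.997 and 0.945 in XY. The wild-type sex difference was 3.03-fold (adjusted p = 0.0446), a call that was lost when replicate number was added to the fit as a block. Fgf1, a ligand of all FGF receptors, was at 0.207 and 0.295 CPM in XX WT and 1.71 and 0.843 in XY WT, a 5.01-fold rise (adjusted p = 0.0372). Fgf1 was at 2.28 and 0.869 CPM (XX) and 0.897 and 0.940 CPM (XY) with the -KTS KO, and 0.849 and 0.949 (XX) and 1.42 and 0.472 (XY) with the +KTS KO. Both genes varied by over 2-fold between the XY WT replicates.

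The X-linked ligand gene Fgf16 was rare. It had 1 UMI in each XX WT library and 22 and 12 in the XY WT libraries, a 20.1-fold difference with a 95% exact counting interval of 5.16 to 173 that covers counting error only (adjusted p = 0.0309). In CPM these levels were 0.0148 and 0.0109 in XX WT and 0.318 and 0.184 in XY WT. Outside the wild-type groups Fgf16 had at most 2 UMIs in a library, at 0.0107 CPM in XX +KTS KO replicate 1, 0.0243 CPM in XY +KTS KO replicate 1 and 0 in the other 6.

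Among the receptors, Fgfr2 was at 56.2 and 56.6 CPM in XX WT and 11.5 and 12.5 CPM in XY WT. The other levels of Fgfr2 were 17.9 and 17.5 CPM (XX) and 14.3 and 13.0 CPM (XY) with the -KTS KO, and 36.3 and 28.4 (XX) and 46 and 32.2 (XY) with the +KTS KO. The 12 libraries thus fell in order with XX WT on top, both +KTS KO groups next, and both -KTS KO groups and XY WT lowest. In XY WT Fgfr2 fell by 2.23 ± 0.18 (SE), 4.69-fold (adjusted p = 0.000146). Fgfr2 is annotated on chromosome 7, 130162451 to 133123350, minus strand (GRCm38). The promoter window printed above lies inside this span and not at its upstream end.

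Fgfr1 went the other way between the wild-type sexes, with 15.3 and 17.2 CPM in XX and 29.4 and 28.5 in XY (1.78-fold, adjusted p = 0.00444). Its highest levels were in the -KTS KO libraries, at 44.0 and 40.4 CPM in XX and 36.0 and 39.8 in XY, and in the +KTS KO libraries it was at 18.7 and 21.2 in XX and 23.7 and 19.7 in XY. Fgfr3 was 2.97-fold lower in XY WT (adjusted p = 0.0244), at 0.549 and 0.552 CPM against 1.61 and 1.66 in XX WT. Every mutant library had Fgfr3 above the XY WT pair, at 1.86 and 1.19 CPM (XX) and 1.65 and 1.94 CPM (XY) with the -KTS KO, and 1.61 and 1.37 (XX) and 2.25 and 1.04 (XY) with the +KTS KO.

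Fgfrl1, which encodes a receptor without a kinase domain, was at 12.4 and 11.6 CPM in XX WT and 23.1 and 20.8 in XY WT, 1.83-fold higher (adjusted p = 0.00478). All 8 mutant libraries lay below the XY WT pair, with Fgfrl1 at 14.4 and 12.6 CPM (XX) and 13.0 and 16.1 CPM (XY) with the -KTS KO, and 14.7 and 13.8 (XX) and 13.9 and 12.2 (XY) with the +KTS KO. Fgfr4 was low throughout, at 0.0887 and 0.262 CPM in XX WT, 0.752 and 0.582 in XY WT, 0.147 and 0.177 CPM (XX) and 0.128 and 0.244 CPM (XY) with the -KTS KO, and 0.462 and 1.01 (XX) and 0.790 and 0.945 (XY) with the +KTS KO. Its wild-type sex difference was not called (log2 fold change 1.88 ± 0.55 (SE), adjusted p = 0.0508).

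The ETS factor Etv4 showed the widest contrast of the readout genes. It was at 2.38 and 2.85 CPM in XX WT and 21.9 and 20.4 CPM in XY WT, 8.07-fold higher (adjusted p = 0.00575). Etv4 was at 0.442 and 1.05 CPM (XX) and 0.527 and 0.696 CPM (XY) with the -KTS KO, and 2.31 and 0.820 (XX) and 3.66 and 1.76 (XY) with the +KTS KO. All -KTS KO libraries thus lay below both wild types, and the +KTS KO libraries, from 0.820 to 3.66 CPM, overlapped XX WT.

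Etv5 was at 4.95 and 4.42 CPM in XX WT and 15.6 and 20.1 in XY WT, 3.82-fold higher (adjusted p = 0.0164). Its levels were 3.07 and 4.54 CPM (XX) and 3.52 and 2.98 CPM (XY) with the -KTS KO, and 4.35 and 2.35 (XX) and 6.79 and 2.65 (XY) with the +KTS KO. Etv1 was at 1.73 and 2.41 CPM in XX WT and 7.50 and 8.14 in XY WT, 3.76-fold higher (adjusted p = 0.00138). Etv1 stayed near the XX WT level in the -KTS KO libraries, at 1.95 and 1.90 CPM in XX and 2.22 and 2.86 in XY, and lay between the wild types in the +KTS KO libraries, at 3.60 and 3.37 in XX and 6.19 and 4.27 in XY.

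Of the inhibitors, Spry4 was at 2.20 and 1.66 CPM in XX WT and 14.7 and 13.2 in XY WT, a rise of 7.23-fold (adjusted p = 0.00954). Spry4 was at 1.39 and 1.67 CPM (XX) and 1.28 and 1.57 CPM (XY) with the -KTS KO, and 2.62 and 2.14 (XX) and 9.77 and 2.12 (XY) with the +KTS KO. The value of 9.77 came from the library with high Fos and Egr1. Dusp6, an ERK phosphatase, was at 9.07 and 9.07 CPM in XX WT and 46.1 and 36.1 in XY WT, 4.53-fold higher (adjusted p = 0.00652). Dusp6 was at 10.8 and 9.49 CPM (XX) and 14.2 and 14.7 CPM (XY) with the -KTS KO, and 13.1 and 28.1 (XX) and 35.9 and 16.7 (XY) with the +KTS KO, so that replicates of both +KTS KO groups were about 2-fold apart.

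Dusp4, a nuclear MAP kinase phosphatase, was at 2.59 and 3.01 CPM in XX WT and 15.7 and 17.6 in XY WT, 5.93-fold higher (adjusted p = 0.00148). Dusp4 was intermediate in the -KTS KO libraries, at 7.48 and 9.19 CPM in XX and 8.73 and 10.8 in XY, and low in the +KTS KO libraries, at 1.58 and 2.51 in XX and 3.35 and 1.64 in XY. Spry1 rose 3.41-fold between the wild-type sexes (adjusted p = 0.00421), from 6.31 and 7.45 CPM to 29.5 and 17.5. It was at 20.7 and 11.7 CPM (XX) and 20.5 and 19.5 CPM (XY) with the -KTS KO, and 6.96 and 6.65 (XX) and 11.8 and 10.6 (XY) with the +KTS KO. Spry2 rose 2.92-fold (adjusted p = 0.00678), from 7.91 and 6.26 CPM in XX WT to 22.4 and 18.9 in XY WT. Spry2 was at 18.3 and 9.53 CPM (XX) and 16.0 and 14.5 CPM (XY) with the -KTS KO, and 8.75 and 6.89 (XX) and 8.85 and 10.6 (XY) with the +KTS KO.

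The 4 homologues Fgf11 to Fgf14 stay inside the cell, where they bind sodium channels, and are not ligands. Fgf13, which is X-linked, was at 1.02 and 0.885 CPM in XX WT and 4.13 and 3.31 in XY WT, 3.91-fold higher (adjusted p = 0.00223). In interstitial progenitor-like cells alone the direction turned, at a log2 fold change of -1.28 that was not called (adjusted p = 0.106). Its mutant levels were near those of XX WT, at 0.699 and 1.10 CPM (XX) and 1.27 and 1.04 CPM (XY) with the -KTS KO, and 0.838 and 1.02 (XX) and 1.43 and 1.43 (XY) with the +KTS KO. Fgf11 was lower in XY WT, at 0.809 and 0.920 CPM against 2.25 and 2.69 (2.85-fold, adjusted p = 0.0138). Fgf11 was at 3.42 and 2.20 CPM (XX) and 2.70 and 3.10 CPM (XY) with the -KTS KO, and 1.67 and 1.80 (XX) and 2.24 and 1.27 (XY) with the +KTS KO.

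Fgf14 had 25 and 18 UMIs in XX WT and 0 in both XY WT libraries, at least 12.1-fold more in XX WT against a floor of 3 counts over the group (adjusted p = 0.0110). In CPM Fgf14 was at 0.369 and 0.197 in XX WT, 0 and 0.0177 CPM (XX) and 0 and 0.0122 CPM (XY) with the -KTS KO, and 0.0322 and 0.0586 (XX) and 0.0122 and 0 (XY) with the +KTS KO. Fgf12 was at 0.236 to 1.92 CPM and was not called in the whole somatic sums.

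**Figure D2:**
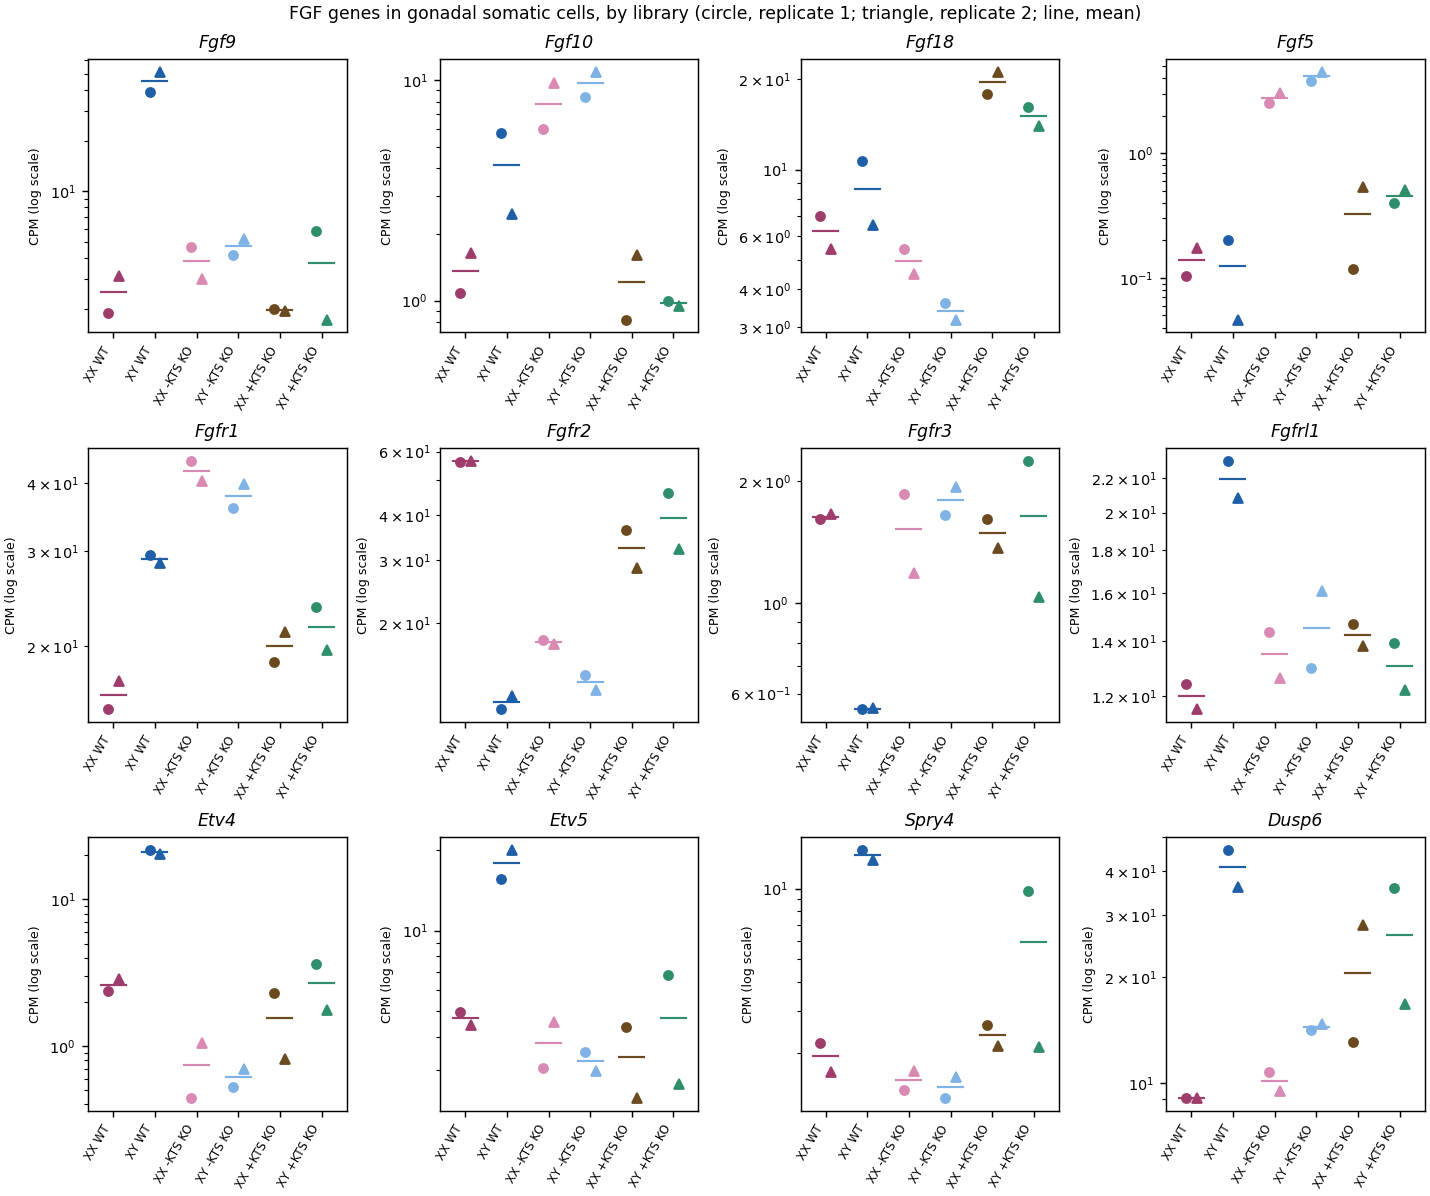
Level of 12 FGF genes in gonadal somatic sums (y axis, CPM, log scale) in the 6 groups (x axis), with a circle for replicate 1, a triangle for replicate 2 and a line for the mean of the pair. Fgf9, Etv4, Etv5 and Spry4 stand highest in the 2 XY WT libraries, Fgf5 in the 4 -KTS KO libraries (2.55 to 4.53 CPM) and Fgf18 in the 4 +KTS KO libraries (14 to 21.2 CPM).

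The next comparisons asked what loss of the -KTS form changed in each sex. All comparisons with a wild type of the same sex share those 2 libraries, so their values are set side by side and not correlated. In XY -KTS KO gonads most called FGF genes fell from the XY WT level, whereas in XX -KTS KO gonads most called genes rose. In XY, 16 of 34 members were called, 4 higher and 12 lower, against 23.4% of all genes (11% and 12.4%), and the median log2 fold change was -0.46 over the members and 0.015 over all genes. In XX, 10 of 34 were called, 7 higher and 3 lower, against 16.2% of all genes (6.71% and 9.52%), with medians of 0.069 and 0.010. Whichever 1 library was left out, Etv1, Etv4, Etv5, Fgf5, Fgf9, Fgf11, Fgf13, Fgf18 and Spry4 stayed called in XY, and Fgf5, Fgfr1 and Fgfr2 in XX. The other calls were lost in at least 1 such fit, with adjusted p there of 0.0520 to 0.194 in XY and 0.0511 to 0.302 in XX.

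In XY -KTS KO gonads Fgf9 fell by 3.26 ± 0.49 (SE) on the log2 scale, 9.59-fold (adjusted p = 0.00155). All 3 ETS factors fell, Etv4 by 5.10 ± 0.59 (SE), 34.4-fold (adjusted p = 0.000376), Etv5 5.51-fold and Etv1 3.08-fold (adjusted p = 0.00333 and 0.00143). With all kept cells summed, germ cells included, the log2 fold change of Etv4 was -1.23 (adjusted p = 0.0255), and Etv5 lost its call at -1.11 (adjusted p = 0.140). Of the 8 inhibitors 2 fell, Spry4 9.75-fold and Dusp6 2.84-fold (adjusted p = 0.00302 and 0.0181). Dusp4, Spry1 and Spry2 were not called in XY, with log2 fold changes of -0.77 ± 0.31, -0.23 ± 0.28 and -0.44 ± 0.27 (SE). Sertoli markers summed to 40.1 and 40.4 CPM in these libraries. Relative to XY WT, summed markers were also lower for germ cells (14.8 to 15.2 CPM against 50.5 to 78.5), mesonephric duct (152 to 182 against 361 to 435) and pre-supporting cells (477 to 526 against 760 to 989), and higher for coelomic epithelium (251 to 258 against 109 to 159). The cluster named mesonephric duct held 0 cells of either group. The part of these marker sets in the change of each gene was not tested in the sums.

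In XX -KTS KO gonads 3 of the 8 inhibitors rose. Dusp4 rose 2.97-fold, Spry1 2.36-fold and Spry2 1.97-fold (adjusted p = 0.0105, 0.0168 and 0.0389). The calls of Dusp4 and Spry1 were lost when all kept cells were summed, at log2 fold changes of 0.70 and 0.80 (adjusted p = 0.302 and 0.105). The XX -KTS KO replicates differed, with 3.28% of the somatic cells in unnamed clusters in replicate 1 and 24.0% in replicate 2, and without replicate 1 the log2 fold changes of Spry1 and Spry2 were 0.77 and 0.43 (adjusted p = 0.133 and 0.302). The unnamed cluster 15, led by AY036118, Gm42418 and Lars2, held 1117 XX -KTS KO cells of its 2318, and its part was not tested. Etv4 fell 3.59-fold (adjusted p = 0.0449), a call that was kept in 4 of 12 alternatives, with adjusted p from 0.00292 to 0.817, and that turned to a log2 fold change of 0.17 when all kept cells were summed. In the somatic sums germ cell markers were at 13.9 and 68.0 CPM in the XX -KTS KO pair and 47.7 to 58.0 CPM in XX WT, and their part in the Etv4 call was not tested. Fgf9 was not called in XX (log2 fold change 0.61 ± 0.48 (SE), adjusted p = 0.436).

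Of the receptors, Fgfr1 rose 2.59-fold in XX -KTS KO (adjusted p = 0.000376) and was not called in XY (log2 fold change 0.39 ± 0.14 (SE), adjusted p = 0.0637). Fgfr2 fell 3.19-fold in XX -KTS KO (adjusted p = 0.000518) and stood at 0.19 ± 0.18 (SE) on the log2 scale in XY (adjusted p = 0.494). Fgfr3 rose 3.26-fold in XY, and Fgfrl1 and Fgfr4 fell 1.51-fold and 3.53-fold there (adjusted p = 0.0103, 0.0153 and 0.0385). In XX none of the 3 was called, with adjusted p of 0.898, 0.482 and 0.895, and their difference between the sexes was not called either (adjusted p = 0.101, 0.0815 and 0.325). In the XX -KTS KO libraries the summed pre-granulosa markers were at 156 to 274 CPM, against 1023 to 1034 in XX WT, and pre-supporting markers at 355 to 388 CPM, against 1149 to 1385. Interstitial progenitor markers were at 644 to 861 CPM, against 401 to 444, and coelomic epithelium markers at 262 to 299 CPM, against 158 to 176. Their part in the XX changes was not tested.

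Some ligands that were nearly lacking in the wild-type somatic sums were present in those of the -KTS KO. Fgf5, a ligand known from hair follicle cycling, was at 0.103 and 0.175 CPM in XX WT, 0.202 and 0.0460 in XY WT, and with the -KTS KO at 2.55 and 3.03 (XX) and 3.80 and 4.53 (XY). In the +KTS KO libraries Fgf5 was at 0.118 and 0.539 CPM in XX and 0.401 and 0.503 in XY. It rose 19.5-fold in XX and 32.8-fold in XY -KTS KO (adjusted p = 0.00322 and 0.00108), and all 4 -KTS KO libraries lay above the other 8. The XY fold rests on few UMIs in XY WT, and on the log2 scale it was 6.45 without XY WT replicate 1 and 4.36 without replicate 2, against 5.04 with both. With all kept cells the log2 fold changes were 2.02 (XX) and 1.94 (XY), still called.

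Fgf20 was at 0.0296 and 0.0765 CPM in XX WT, 0.0289 and 0.0153 in XY WT, 0.687 and 0.124 CPM (XX) and 0.384 and 0.854 CPM (XY) with the -KTS KO, and 0.107 and 0.0820 (XX) and 0.0729 and 0.185 (XY) with the +KTS KO. Fgf20, a paralogue of Fgf9, counted 97 UMIs with the -KTS KO in XY and 3 in the XY wild type, a 28.6-fold difference with a 95% exact counting interval of 9.49 to 141 (adjusted p = 0.00880). In XX its rise was not called (log2 fold change 2.88 ± 0.87 (SE), adjusted p = 0.0500). Fgf10 rose 5.74-fold in XX (adjusted p = 0.00605) and was at 1.23 ± 0.44 (SE) on the log2 scale in XY (adjusted p = 0.0690). Fgf1 rose 6.24-fold in XX (adjusted p = 0.0196). Without XX -KTS KO replicate 1 the log2 fold change of Fgf1 was 1.77, the lowest of the alternatives. The Fgf1 call was lost when all kept cells were summed.

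Fgf18, a ligand mostly of mesenchymal receptor forms, was at 7.01 and 5.45 CPM in XX WT, 10.6 and 6.54 in XY WT, 5.44 and 4.51 CPM (XX) and 3.60 and 3.16 CPM (XY) with the -KTS KO, and 17.8 and 21.2 (XX) and 16.2 and 14 (XY) with the +KTS KO. All 4 +KTS KO libraries lay above the other 8, and the 2 XY -KTS KO libraries were the lowest. Fgf18 fell 2.54-fold in XY -KTS KO (adjusted p = 0.00354).

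Fgf3, a ligand of epithelial receptor forms, was at 0.0887 and 0.0437 CPM in XX WT, 0.188 and 0.0613 in XY WT, 0.0123 and 0 in XX -KTS KO, 0 in both XY -KTS KO libraries, and with the +KTS KO at 0.183 and 0.117 (XX) and 0.207 and 0.113 (XY). It was at least 6.42-fold lower in XY -KTS KO against a floor of 3 counts over the group (adjusted p = 0.0145). Fgf16 was at least 12.8-fold lower in XY -KTS KO by the same floor (adjusted p = 0.00899). Fgf11 rose 3.35-fold and Fgf13 fell 3.23-fold in XY -KTS KO (adjusted p = 0.00413 and 0.00226). In interstitial progenitor-like cells alone the XY -KTS KO log2 fold change stood above 0 for Fgf13 (0.66), Fgf9 (0.64) and Fgfrl1 (0.31), none of them called. Fgf14 had 43 UMIs in XX WT and 1 in XX -KTS KO, a 37.2-fold difference with a 95% exact counting interval of 6.34 to 1504 (adjusted p = 0.0153).

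**Figure D3:**
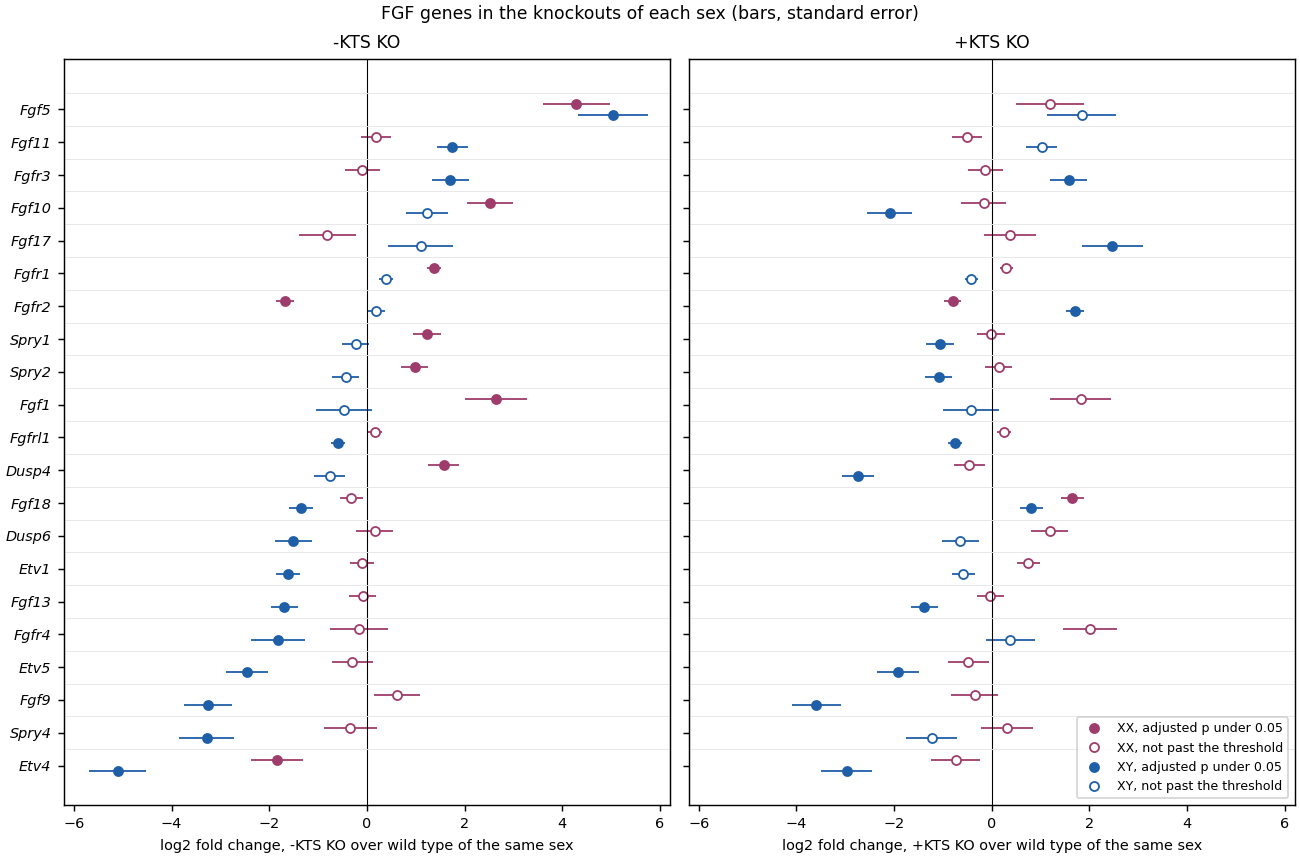
Log2 fold change (x axis) of 21 FGF genes in the -KTS KO (left) and +KTS KO (right) over wild type of the same sex, XX in purple and XY in blue, with bars for the standard error and filled points where the adjusted p was below 0.05. Etv4 lies lowest in XY -KTS KO at -5.10 and Fgf5 highest at 5.04; Fgf3, Fgf14, Fgf16 and Fgf20 are left out because of groups with at most 3 UMIs.

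Whether the -KTS KO acted differently in the sexes was tested as a difference of differences. It was called for 5 members against 3.05% of all genes, 4 with the XX change above the XY change and 1 below (1.78% and 1.28% of all genes). DESeq2 called 16 members, and edgeR without the filter on low counts 13. The 3.05% is not the background of these counts. Over all genes the alternatives gave 16 to 1320 calls, against 541 in the main fit. Relative to XY, the change in XX was higher for Fgf9 by 3.87 ± 0.68 (SE) on the log2 scale (adjusted p = 0.0194), for Dusp4 by 2.34 ± 0.45 (adjusted p = 0.0264), for Etv1 by 1.51 ± 0.34 (adjusted p = 0.0467) and for Fgfr1 by 0.99 ± 0.19 (adjusted p = 0.0275). Of the inhibitors Spry1, Spry2, Spry4 and Dusp6 were not called (adjusted p = 0.0831, 0.0856, 0.0757 and 0.133). For Fgfr2 the change in XX was lower, at -1.86 ± 0.25 (SE) (adjusted p = 0.00754). The 4 -KTS KO libraries had Fgf9 at 3.00 to 5.20 CPM and Fgfr2 at 13.0 to 17.9 CPM, with a far wider spread among the 4 wild-type libraries (1.88 to 51.4 CPM and 11.5 to 56.6 CPM). The Fgfr2 difference stayed called whichever 1 of the 8 libraries was left out, and the other 4 did not, with adjusted p up to 0.163. The Etv1 difference was lost whichever library was left out and was kept in 4 of 16 alternatives.

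The loss of the +KTS form was compared in the same way. In XX +KTS KO gonads 2 of 34 members were called, 1 higher and 1 lower, against 5.01% of all genes (2.34% and 2.67%). Fgf18 rose 3.13-fold (adjusted p = 0.00618) and Fgfr2 fell 1.74-fold (adjusted p = 0.0318). The 7 pre-granulosa markers summed to 202 to 251 CPM here, against 1023 to 1034 in XX WT. The 5 steroidogenic markers summed to 178 to 188 CPM, against 29.8 to 38.5. The part of these markers was not tested, and such sums over a few genes do not count cells. The paper identified pre-granulosa clusters in the +KTS KO of both sexes. In this clustering 50.8% and 44.5% of the XX +KTS KO somatic cells lay in unnamed clusters. The median log2 fold change was 0.0027 over the members and 0.00024 over all genes. An unadjusted p below 0.05 was found for 8 of 34 members and for 3224 of 17715 genes. The Fgfr2 call was lost whichever 1 of the 4 libraries was left out (adjusted p from 0.0610 to 0.234) and the Fgf18 call without XX +KTS KO replicate 2 or XX WT replicate 2 (0.0500 and 0.0580).

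In XY +KTS KO gonads 14 of 34 members were called, 4 higher and 10 lower, against 12.3% of all genes (6.04% and 6.27%), with median log2 fold changes of -0.40 over the members and 0.051 over all genes. Fgf9 fell by 3.59 ± 0.50 (SE), 12.1-fold (adjusted p = 0.00266), and Fgfr2 rose 3.25-fold (adjusted p = 0.000887). Etv4 fell 7.83-fold, Etv5 3.79-fold and Dusp4 6.67-fold (adjusted p = 0.00739, 0.0188 and 0.00144). Spry1 and Spry2 fell 2.09-fold and 2.13-fold (adjusted p = 0.0370 and 0.0315). When all kept cells were summed, Etv5, Fgf17, Fgfr3, Fgfrl1, Spry1 and Spry2 lost their calls. Spry4, Dusp6 and Etv1 were not called, with log2 fold changes of -1.23 ± 0.52, -0.64 ± 0.37 and -0.58 ± 0.24 (SE), and the value for Etv1 turned to 0.355 in interstitial progenitor-like cells alone (adjusted p = 0.291). Sertoli markers summed to 84.6 to 225 CPM in XY +KTS KO, against 1380 to 1742 in XY WT. Mesonephric duct markers summed to 34.4 to 41.6 CPM, against 361 to 435. The duct sum does not count duct cells, as 63 of the 64 cells of the duct cluster, which was set aside, were XY +KTS KO. Steroidogenic markers were at 89.3 to 152 CPM, against 32.9 to 55.5, and neural crest markers at 4.28 to 4.70 CPM, against 18.5 to 20.6. In the unnamed cluster 0, with 2435 XY +KTS KO cells, Cyp11a1 was the 1 steroidogenic marker among the leading genes. Of the marker lists the pre-supporting one scored highest in that cluster. The part of these marker sets in these changes was not tested.

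Ligands and receptors in XY +KTS KO moved as follows. Fgf10 fell 4.26-fold, and Fgf18 rose 1.75-fold (adjusted p = 0.0191 and 0.0494). Fgf17 rose 5.54-fold (adjusted p = 0.0313), at 0.462 and 0.216 CPM against 0.0578 and 0.0613 in XY WT. Elsewhere Fgf17, a close relative of Fgf8, was at 0.296 and 0.142 CPM in XX WT, 0.135 and 0.106 (XX) and 0.0854 and 0.171 (XY) with the -KTS KO, and 0.322 and 0.234 in XX +KTS KO. Fgf16 was 22.7-fold lower, with 2 UMIs against 34 and a 95% exact counting interval of 5.83 to 195 (adjusted p = 0.0294). Fgfr3 rose 2.97-fold, Fgfrl1 fell 1.68-fold and Fgf13 fell 2.60-fold (adjusted p = 0.0266, 0.0111 and 0.0123). In interstitial progenitor-like cells alone the direction turned for Fgf13, at 1.47 on the log2 scale (adjusted p = 0.0416), and stood at 0.79 for Fgf9 and 0.14 for Fgfrl1, neither called.

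The XY +KTS KO replicates 1 and 2 differed in their classes. Of their somatic cells 49.1% and 0.176% were pre-granulosa-like, 3.1% and 44.8% unnamed, and 2.86% and 17.7% coelomic epithelium-like. The part of this split was not tested. Because XY +KTS KO replicate 1 had high immediate early genes, the comparison was repeated without it, the lone library being taken to vary like the other groups. The calls without replicate 1 are listed by gene and are not set against a share of all genes. Dusp4, Etv4, Etv5, Fgf9, Fgf13, Fgf16, Fgfr2 and Fgfrl1 kept their calls, and Fgf10, Fgf17, Fgf18, Fgfr3, Spry1 and Spry2 lost theirs (adjusted p from 0.0640 to 0.140). Newly called as lower were Spry4, at a log2 fold change of -2.71, and Fgf2, Spred1 and Spred2 (adjusted p = 0.00134, 0.0222, 0.0114 and 0.00834). Over all such fits Dusp4, Etv4, Fgf9 and Fgfr2 were the 4 genes that stayed called whichever 1 of the 4 libraries was left out, the others reaching adjusted p of up to 0.254. The log2 fold change of Fgf9 was larger in size without XY +KTS KO replicate 1, at -4.70 on the log2 scale (adjusted p = 0.000646).

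The difference between the sexes in the +KTS KO effect was called for 4 members, 3 with the XX change above and 1 below, against 3.87% of all genes (2.05% and 1.82%). DESeq2 called 13 members, and edgeR without the filter on low counts 9. The 3.87% is not the background of these counts. Over all genes the alternatives gave 58 to 1538 calls, against 686 in the main fit. The difference was positive for Fgf9 (3.24 ± 0.68 (SE), adjusted p = 0.0321), Dusp4 (2.28 ± 0.46, adjusted p = 0.0275) and Fgfrl1 (1.00 ± 0.21, adjusted p = 0.0303). For Fgfr2 it was -2.50 ± 0.25 (SE) on the log2 scale (adjusted p = 0.00154), with a fall in XX and a rise in XY. Without XY +KTS KO replicate 1 these 4 calls were kept and Dusp6, Etv1, Etv5, Fgfr1 and Spry4 were added, each with a higher change in XX. Whichever 1 of the 8 libraries was left out Fgfr2 stayed called, and the other 3 lost the call in some fits, with adjusted p up to 0.119.

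Levels were then described by cell class, where classes were named from marker genes and carry "-like". Clusters were formed on these cells, so no class was tested against another, and here CPM refers to the UMIs of the class itself in a library. Sertoli-like cells numbered 1764 and 1269 in the XY WT libraries and at most 4 in any other library. They held 92.0% and 92.2% of the somatic Fgf9 UMIs of these libraries, at 124 and 166 CPM. Free RNA gives UMIs in all droplets, and in erythroid cells of the same libraries Fgf9 was at 2.68 and 1.86 CPM. The XY WT cells of an unnamed cluster led by Cpa1, Spp1 and Gldn had Fgf9 at 11.1 and 12.8 CPM. XX WT pre-granulosa-like cells had 0.317 and 0.649 CPM. Coelomic epithelium-like cells had Fgf9 at 5.73 and 10.9 CPM in XX WT and 5.43 to 9.04 CPM in the -KTS KO libraries.

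Fgfr2 ran opposite to Fgf9 between XX WT pre-granulosa-like and XY WT Sertoli-like cells. It was at 71.2 and 73.5 CPM in XX WT pre-granulosa-like cells and at 4.50 and 6.40 CPM in XY WT Sertoli-like cells, with interstitial progenitor-like cells at 40.2 and 35.6 CPM in XX WT and 12.8 and 14.2 CPM in XY WT. The pre-granulosa-like cells of XY +KTS KO replicate 1, 3162 in number and led in part by Fos and Btg2, had Fgfr2 at 54.3 CPM. Pre-supporting-like cells, the precursors of both supporting types, had Fgfr2 at 28.2 and 31.3 CPM (XX) and 21.6 and 21.7 CPM (XY) with the -KTS KO. Fgfrl1 was at 48.5 and 39.2 CPM in Sertoli-like cells and at most 18.5 CPM in every other named class of a library with at least 50 cells, and Fgf13 was at 12.5 and 8.61 CPM in Sertoli-like cells.

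Fgfr1 was at its highest in interstitial progenitor-like cells, at 32.2 to 60.1 CPM over the 12 libraries, and was at 7.53 and 8.34 CPM in Sertoli-like cells. Fgf10 was nearly lacking in Sertoli-like cells (0.101 and 0.161 CPM). It was at 8.39 and 5.63 CPM in XY WT interstitial progenitor-like cells and at 9.83 to 16.3 CPM in the pre-supporting-like cells of the 4 -KTS KO libraries. In XX WT pre-supporting-like cells Fgf10 was at 0.558 and 0 CPM. These pre-supporting-like cells lay in different clusters, cluster 7 holding 1408 XX and 2054 XY -KTS KO cells but 6 XX WT cells, and cluster 25 holding 754 XX WT cells but 1 -KTS KO cell of each sex. Fgf5 in the -KTS KO libraries lay in interstitial progenitor-like (3.19 to 6.31 CPM) and coelomic epithelium-like cells (2.88 to 4.81 CPM), was at 3.24 to 6.10 CPM in germ cells of the same libraries and was at most 0.484 CPM in pre-supporting-like cells. Fgf20 lay in interstitial progenitor-like cells, which held 85.7% to 95.7% of its UMIs in these 4 libraries.

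Fgf18 reached its highest levels in cells of the +KTS KO. In the unnamed cluster 0, led by Cyp11a1 and Inha, it was at 24.3 and 31.9 CPM in the XX +KTS KO pair, and XY +KTS KO replicate 2 had 19.5 CPM. In pre-supporting-like cells it was at 35.9 and 25.4 CPM in the XX +KTS KO pair, with 22.7 CPM for XY +KTS KO replicate 2. These cells numbered 236 and 91 in that pair and 155 in that XY library. In the +KTS KO they lay mostly in clusters 29 and 30, where Cyp11a1 was a leading gene as in cluster 0. XX WT pre-granulosa-like cells had Fgf18 at 7.35 and 6.13 CPM and Sertoli-like cells at 16.5 and 8.72 CPM. Dusp4 in pre-supporting-like cells was at 16.7 to 24.7 CPM in the -KTS KO libraries (cluster 7) and 1.30 and 2.92 CPM in XX WT (mostly cluster 25).

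**Figure D4:**
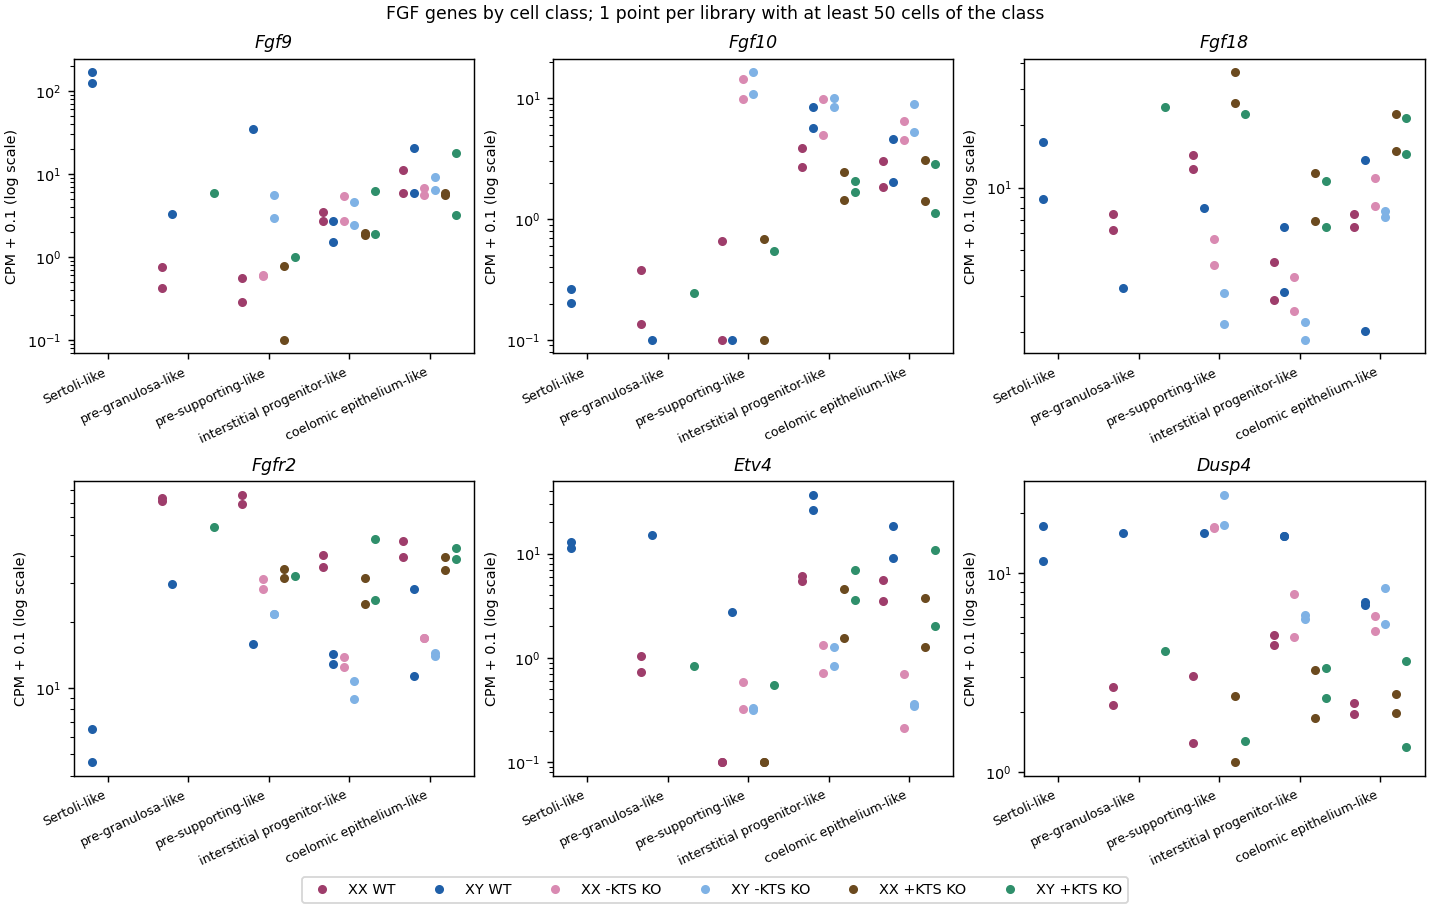
Level of 6 FGF genes (y axis, CPM plus 0.1, log scale) in 5 marker-named cell classes (x axis), with 1 point per library that held at least 50 cells of the class, coloured by group. Fgf9 peaks in the XY WT Sertoli-like points (124 and 166 CPM), Fgfr2 is lowest there (4.50 and 6.40 CPM), and Fgf10 and Dusp4 stand high in -KTS KO pre-supporting-like cells, which lie in another cluster than those of XX WT.

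The ETS factors and inhibitors were not confined to Sertoli-like cells, the class that held most Fgf9 UMIs in XY WT. XY WT interstitial progenitor-like cells held 80.2% and 74.3% of the somatic Etv4 UMIs, at 26.0 and 36.4 CPM, against 12.8 and 11.1 CPM in Sertoli-like cells. This class had 1258 to 4082 cells in every library, so it was summed alone and fitted like the whole somatic compartment, a choice made after the data were seen. Its clusters differed by genotype: clusters 4, 5, 10 and 23 made up most of it in XX WT, 4 and 8 in XY WT, and 1, 13 and 18 in -KTS KO. With the +KTS KO they were 4, 5 and 10 (XX) and 5, 10 and 17 (XY). Cluster 17, led by Btg2, Egr1 and Fos, held 1732 XY and 58 XX +KTS KO cells. Cluster 4 was led in part by the mitotic genes Aspm and Plk1, and cluster 10 by histone genes such as Hist1h2ap. Clusters 4, 5, 8, 10, 13 and 18 had no listed marker among their leading genes. The part of the cell cycle in these fits was not tested. Of the members 27 could be tested among 15823 genes.

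Within these cells XY WT and XX WT differed in 5 of 27 members, against 2.5% of all genes. DESeq2 called 13, and 16 had an unadjusted p below 0.05. For these measures, here and below, the share over all genes was not counted. From here CPM refers to the scaled sum of this class. Etv4 was higher by 2.56 on the log2 scale, at 28.6 and 36.5 CPM against 5.37 and 5.64 (adjusted p = 0.0227). Dusp4 and Spry1 were higher as well, by 1.88 and 1.36, and Fgfr2 and Fgfr3 lower, at -1.39 and -1.65 (adjusted p from 0.00843 to 0.0355). Fgf9 was at 2.85 and 1.40 CPM in XY WT and 2.61 and 3.19 in XX WT and was not called (adjusted p = 0.790). Its log2 fold change in this class was -0.43, against 4.16 in the whole somatic sums. The XY WT levels in this class were close to those in erythroid cells of the same libraries. The part of free RNA in these levels, and so in the changes of Fgf9 against XY WT in this class, was not tested.

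In XY -KTS KO interstitial progenitor-like cells 13 of 27 members were called, against 20.5% of all genes, and DESeq2 called 14. Etv4 was at 0.728 and 1.14 CPM, a log2 fold change of -5.11 (adjusted p = 0.000292), and Spry4 was at 0.650 and 0.638 CPM against 12 and 11.6 in XY WT, a log2 fold change of -4.19 (adjusted p = 0.000411). Etv1, Etv5, Dusp4, Dusp6, Fgf18 and Fgfr4 fell too, at log2 fold changes of -1.01, -1.98, -1.48, -1.58, -1.41 and -2.87. Fgf5, Fgf11, Fgf12 and Fgfr3 rose, at 4.91, 1.79, 2.80 and 1.75. Fgf20 was called higher as well (adjusted p = 0.0272), its UMIs numbering 25 and 67 in that pair and 1 and 0 in XY WT. In XX -KTS KO 6 of 27 were called, against 10.5%, and DESeq2 called 9. Etv4 (0.632 and 1.25 CPM) and Spry4 (0.762 and 0.895 CPM against 5.27 and 3.75 in XX WT) fell there (adjusted p = 0.0143 and 0.0102), as did Fgfr2 (-1.46 on the log2 scale), while Fgf1, Fgf5 and Fgfr1 rose, at 2.48, 3.73 and 0.78. Spry4 in XX had not been called in the whole somatic sums (log2 fold change -0.34 ± 0.54 (SE), adjusted p = 0.729).

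In XY +KTS KO interstitial progenitor-like cells 6 of 27 members were called, against 5.08%, and DESeq2 called 10. Etv4, Dusp4 and Fgf10 were lower, at log2 fold changes of -2.72, -2.60 and -2.12, and Fgf13, Fgfr2 and Fgfr3 higher, at 1.47, 1.31 and 1.35 (adjusted p from 0.00215 to 0.0460). Without XY +KTS KO replicate 1 the log2 fold changes of Etv4, Dusp4 and Fgf10 were -3.21, -2.83 and -2.22. Those of Etv5, Spry4 and Fgf2 were -1.92, -1.63 and -1.53. Fgf13, Fgfr2 and Fgfr3 lost their calls, at 1.54, 0.854 and 1.015. In XX +KTS KO edgeR called 0, against 1.27% of all genes, with 5 members at an unadjusted p below 0.05 and 2 called by DESeq2. For the difference between the sexes edgeR called 0 members in both knockouts, against 0.101% of all genes for -KTS KO and 0.367% for +KTS KO. Unadjusted p was below 0.05 for 12 and 11 members there, and DESeq2 called 3 and 2. The 0.101% and 0.367% are not the background of these counts.

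**Figure D5:**
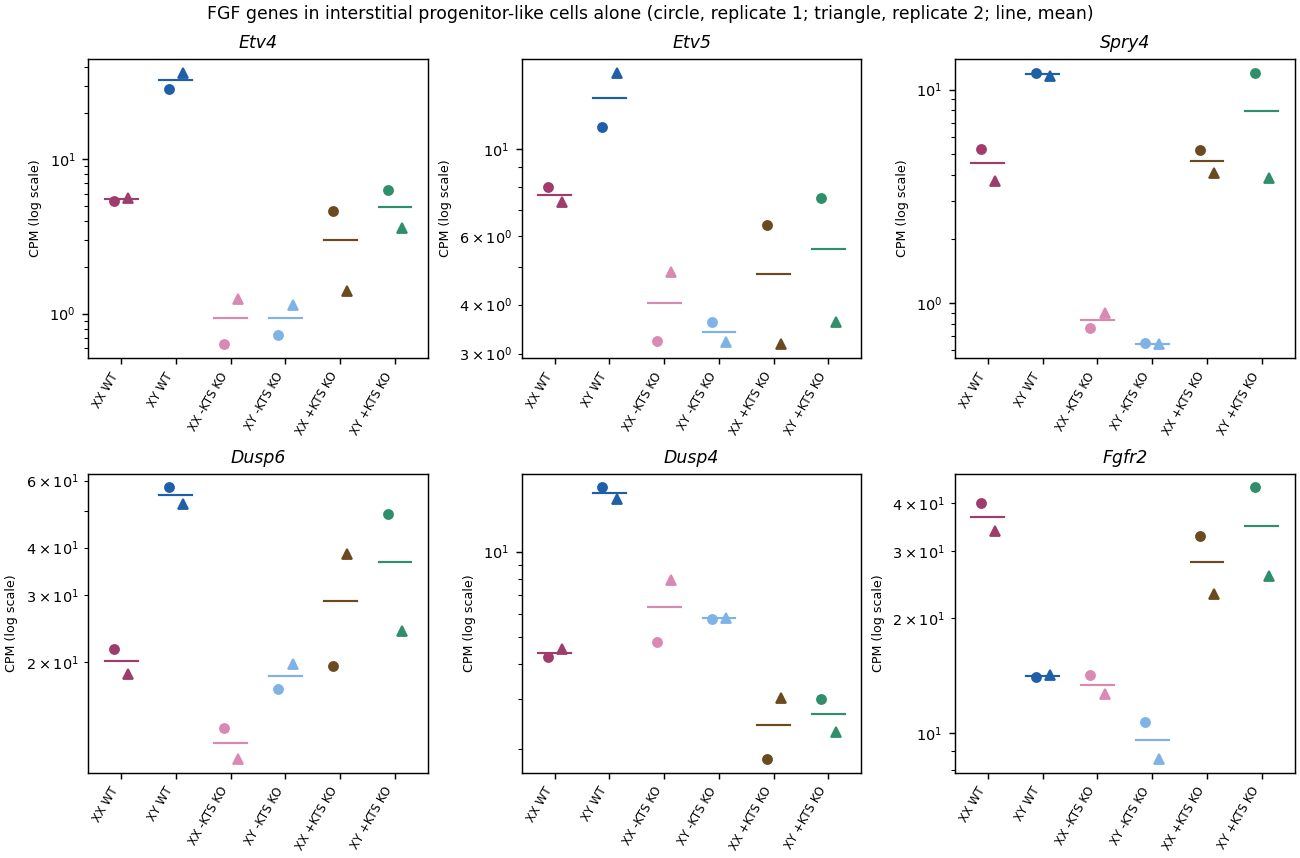
Level of 6 FGF genes in interstitial progenitor-like cells alone (y axis, CPM, log scale) in the 6 groups (x axis), with a circle for replicate 1, a triangle for replicate 2 and a line for the mean. Etv4 and Spry4 are lowest in the 4 -KTS KO libraries and Etv4 highest in the XY WT pair (28.6 and 36.5 CPM).

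Other genes of the pathway were counted from a list of 48, of which 47 were tested. Between the wild-type sexes 7 were called, 5 higher and 2 lower in XY WT, where 13.3% of all genes were. The largest rises were of Fgfbp1, a secreted carrier of FGFs, with 48 UMIs against 2 (28.4-fold, 95% exact counting interval 7.45 to 241, adjusted p = 0.0366), and of Il17rd, a membrane inhibitor of FGF receptors (3.46-fold, adjusted p = 0.00197). Sulf1, which trims sulphate from heparan sulphate, and Flrt2 fell 3.65-fold and 1.83-fold (adjusted p = 0.00407 and 0.0412).

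In XX -KTS KO 8 of the 47 were called, 4 higher and 4 lower, where 16.2% of all genes were, led by the heparan sulphate proteoglycan gene Gpc3 (2.64-fold up) and Sulf2 (2.58-fold up), and by Gpc4 and Sdc2 (2.24-fold and 2.23-fold down). In XY -KTS KO 13 were called, 6 higher and 7 lower, where 23.4% of all genes were. Flrt3 and Sulf1 rose most (3.28-fold and 2.89-fold). Fgfbp1 fell most, from 48 UMIs to 3 (18.1-fold, 95% exact counting interval 5.84 to 90.9), followed by Ccnd1 (4.90-fold), a cyclin gene downstream of the pathway.

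In XX +KTS KO 1 of the 47 was called, Ndst1, a heparan sulphate sulphotransferase gene (1.93-fold up), where 5.01% of all genes were. In XY +KTS KO 9 were called, 3 higher and 6 lower, where 12.3% of all genes were, with Flrt2 and Flrt3 rising most (1.99-fold and 1.93-fold). Fgfbp1 fell most, from 48 UMIs to 3 (21.4-fold, 95% exact counting interval 6.89 to 107), followed by Il17rd (2.74-fold). The difference between the sexes was called for Il17rd in both knockouts (1.90 ± 0.34 and 1.47 ± 0.34 (SE) on the log2 scale, adjusted p = 0.0214 and 0.0469), where 3.05% and 3.87% of all genes were called. For the +KTS KO it was also called for Map2k1 (0.83 ± 0.19, adjusted p = 0.0406), and, with a lower change in XX, for Sulf1, Flrt2 and Sdc2 (-1.98 ± 0.42, -1.79 ± 0.34 and -1.05 ± 0.25, adjusted p = 0.0326, 0.0234 and 0.0479). Without XY +KTS KO replicate 1, the log2 fold changes in XY +KTS KO were -1.90 for Il17rd, -1.64 for Ccnd1 and 0.935 for Ndst1. Flrt2, Flrt3 and Fgfbp1 lost their calls there, at 0.630, 0.807 and -4.89. In the same fit the difference between the sexes lost its call for Map2k1, Sulf1 and Sdc2, at 0.706, -1.77 and -0.949. It kept the call for Il17rd and Flrt2, at 1.93 and -1.42.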

How the data were processed

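Dissociated E12 gonads were profiled in 12 droplet libraries read from the polyadenylated transcript end. The authors aligned reads with Cell Ranger 6.0, the labels naming mm10, and deposited UMI counts per gene and barcode, unnormalized. From these counts, barcodes were kept that had 1000 genes or more and no more than 10% of UMIs from mitochondrial genes. Scrublet's own threshold called 0 to 3 doublets in most libraries and so had not worked, and barcodes were removed from the top of its score instead, 0.8% per 1000 barcodes. Cells were clustered with Seurat 5.3.0 and sctransform 0.4.2, clusters were named from marker lists, and germ, endothelial, perivascular, erythroid, immune, mesonephric duct and neural crest clusters were set aside. Of the 26 remaining clusters 7 stayed unnamed, with 20.8% of the somatic cells. UMIs were summed per library and fitted with edgeR 4.0.16 (R 4.3.3), with TMM scaling, filterByExpr, 1 quasi-likelihood fit over the 6 groups and Benjamini-Hochberg adjustment. Somatic totals were 57082504 to 99612215 UMIs per library. Members, gene lists and naming thresholds were chosen with earlier results of these data known. Every member called in the whole somatic sums was named with its values. The steps were tested on simulated data. Alternatives included DESeq2 1.42.0, other scaling, no filter and leaving out each library.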

Additional observations from a re-analysis of the deposited data

Results flagged for a closer look

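The effect of a knockout differed between XX and XY, by a test of the difference itself, for 9 results on FGF genes. For the -KTS KO, the log2 change in XX minus that in XY was 3.873 for Fgf9, 2.336 for Dusp4, 1.513 for Etv1, 0.9862 for Fgfr1 and -1.858 for Fgfr2. For the +KTS KO it was 3.238 for Fgf9, 2.279 for Dusp4, 0.9979 for Fgfrl1 and -2.503 for Fgfr2. Both tests for Fgfr2 passed the threshold in all 16 alternatives run outside interstitial progenitor-like cells alone, whereas those for Fgf9 passed in 11 and 9 of 16. Those for Dusp4 passed in 8 and 11 of 16. For the -KTS KO, Fgfr1 passed in 8 and Etv1 in 4 of 16, and for the +KTS KO Fgfrl1 passed in 10 of 16.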

How the results depend on the processing

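Of 70 calls on members, 22 held in every alternative run on the somatic or all kept cells (interstitial progenitor-like cells alone not counted), 46 were lost without at least 1 library and 28 when all kept cells were summed. The counts of members called moved over 1.5-fold as follows. With all kept cells they were 11 between the wild-type sexes, 6 in XX -KTS KO, 1 in XX +KTS KO, 8 in XY +KTS KO, and 2 and 1 for the differences between the sexes in the -KTS KO and +KTS KO effects. DESeq2 gave 5 in XX +KTS KO and 16 and 13 for those differences, and no filter on low counts gave 5, 13 and 9. In interstitial progenitor-like cells alone, chosen after seeing the data and with fewer genes tested, they were 5 between the wild-type sexes, 6 in XX -KTS KO, 0 in XX +KTS KO, 6 in XY +KTS KO, and 0 for both differences. Leaving out 1 library gave 9 to 16 between the wild-type sexes, 3 to 8 in XX -KTS KO, 10 to 13 in XY -KTS KO, 0 to 1 in XX +KTS KO, 5 to 12 in XY +KTS KO, and 1 to 6 and 1 to 9 for the differences. Among the calls on members, and for Fgf9 and Fgfr2 also where not called, directions turned as follows, and the cause was not tested. Other members that were not called are left aside. In interstitial progenitor-like cells alone the log2 fold change was -0.43 for Fgf9 and -1.28 for Fgf13 between the wild-type sexes. In XY -KTS KO it was 0.64 for Fgf9, 0.66 for Fgf13, -0.55 for Fgfr2 and 0.31 for Fgfrl1, in XY +KTS KO 0.79 for Fgf9, 1.47 for Fgf13 and 0.14 for Fgfrl1, and for the differences between the sexes -0.15 and -1.48 for Fgf9. Etv4 in XX -KTS KO came to 0.17 with all kept cells, and Fgf9 in XX +KTS KO ran from -0.67 to 0.063 without 1 library (-0.67 without XX WT replicate 1 and 0.063 without replicate 2). Calls over all genes moved as well. Between the wild-type sexes they ran from 395 to 3020 over the alternatives. They ran from 1157 to 3537 in XX and 2137 to 4695 in XY -KTS KO, and from 146 to 1507 in XX and 707 to 3179 in XY +KTS KO. For the differences they ran from 16 to 1320 (-KTS KO) and 58 to 1538 (+KTS KO). No label pairs the samples by replicate number. Between groups, deviations of the same number correlated at -0.386 to 0.442. Among XX WT, XY WT and XY -KTS KO the values were 0.2 to 0.442, and with XY +KTS KO these groups were at -0.386 to -0.303. Pairing was thus neither shown nor excluded. With a replicate block, members called were 19 (sex), 9 and 16 (XX and XY -KTS KO), and 3 and 14 (XX and XY +KTS KO). For the differences they were 4 and 4. The block lost 3 calls, Fgf10 between the wild-type sexes, Etv4 in XX -KTS KO and Etv1 in the -KTS KO difference. Depth limits Fgf3, Fgf14, Fgf16 and Fgf20, which had at most 3 UMIs in a group they were compared with.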

Other observations

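Outside the somatic compartment some readout genes were high. Germ cells had Etv5 at 56.0 to 87.3 CPM of their own UMIs in the libraries with at least 50 such cells, Etv4 at 24.2 to 65.5 CPM and Dusp4 at 24.6 to 48.2 CPM, all above the whole somatic sums. Endothelial cells had Dusp6, the ERK phosphatase gene, at 58.7 to 105 CPM, Spry4 at 13.9 to 67.2 CPM and Spry1 at 15.8 to 44.0 CPM. These classes were compared neither with each other nor between groups, and entered the sums only where all kept cells were summed.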
